A study of Mus musculus with 6 samples.

Results

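The SoxE genes Sox8, Sox9 and Sox10 and the SoxD genes Sox5, Sox6 and Sox13 are 6 of the 19933 mouse genes that had a probeset of their own on these arrays. They were chosen by family membership, with earlier results of these data known. The gene lists set beside all genes below were also drawn up with those results known. Each had a single probeset, so no choice between probesets entered their values. RNA came from NCU10K, an immortalized neural crest cell line of the mouse grown in DMEM with 10% foetal calf serum. All cells were transfected with siRNA using RNAiMAX and harvested 48 h later: 3 replicates received a low GC control siRNA and 3 received Nedd4 siRNA. Each replicate was a separate experiment and gave 1 Affymetrix mouse gene array, made from 300 ng of total RNA. A single Nedd4 siRNA sequence is described and the arrays hold no rescue, so loss of Nedd4 and other effects of that siRNA cannot be told apart. The design notes take the RNA from dishes and the methods from a well of a multiwell plate, and these statements were not reconciled. All values below are the authors' log2 expression values.

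Sox proteins bind the minor groove of DNA through an HMG box and bend it. SoxE proteins add a transactivation domain, and they act in succession and in part redundantly in the neural crest: Sox9 in its formation and later in cartilage, Sox10 in multipotent crest cells, glia and melanocytes, and Sox8 mostly as a helper of the other two. SoxD proteins lack a transactivation domain of their own and pair through a coiled coil. Sox5 and Sox6 assist Sox9 on cartilage genes and can oppose Sox10 on glial and melanocyte genes, while Sox13 is better known for binding TCF factors of the Wnt pathway.

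Nedd4, the ubiquitin ligase targeted by the siRNA, read 12.24, 12.35 and 12.34 with control siRNA and 10.45, 10.94 and 10.68 with Nedd4 siRNA. It was 3.07-fold lower (log2 fold change −1.62, SE 0.12, adjusted p = 3.16e-06, limma). Array medians lay between 6.28 and 6.35. Control replicate 1 had the narrowest interquartile range (3.06, others 3.14 to 3.33) and the highest lower quartile (5.55, others 5.42 to 5.49). Over all 19933 genes, 18.7% passed at an adjusted p under 0.05, with 9.62% higher after Nedd4 siRNA and 9.13% lower, and the groups did not overlap for 31.7%. With the dimmest 50% of probesets left out, limma passed 4745 of 14218 probesets, against 4579 of all 28440. The shares over all genes are not matched for signal level to any list below. Of the 6 SoxE and SoxD genes, 3 passed: Sox9 was higher, and Sox10 and Sox13 were lower. The other 3 did not pass, and their groups overlapped.

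**Figure D1:**
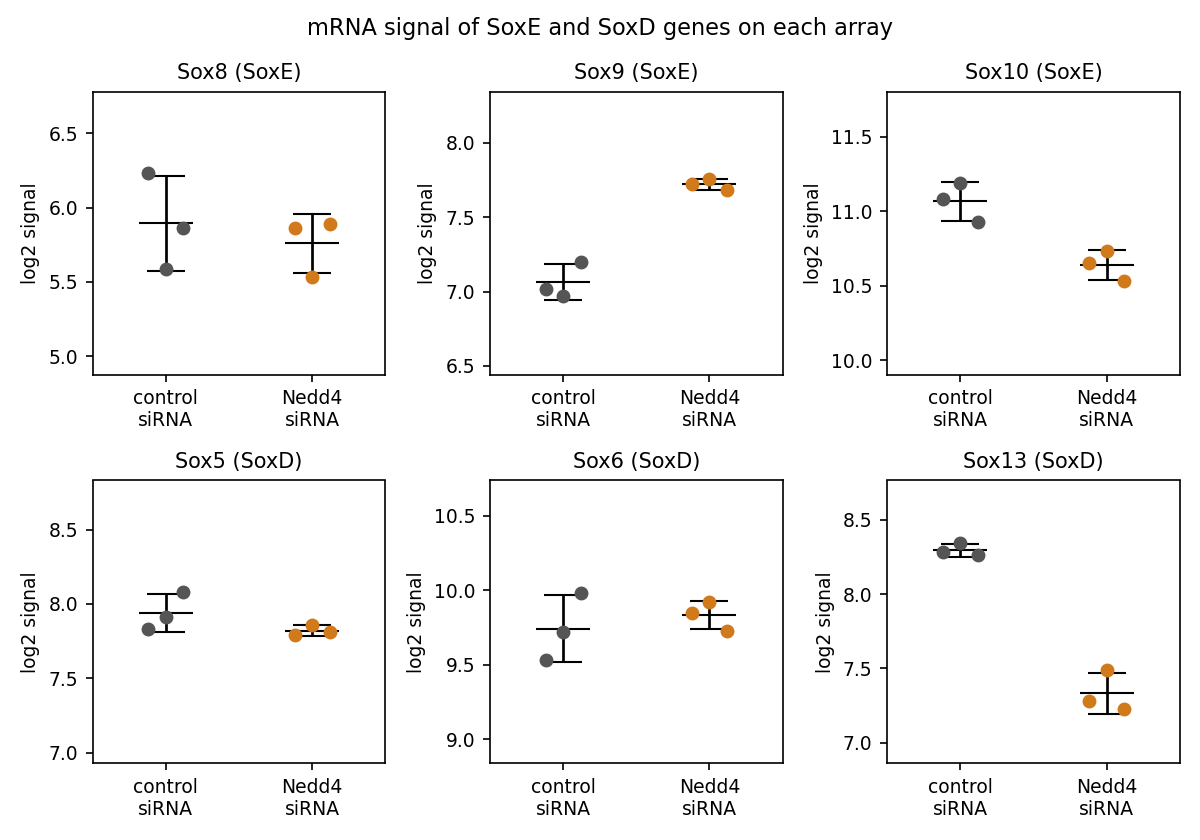
Log2 expression of the 3 SoxE and 3 SoxD genes on each array, with control siRNA and Nedd4 siRNA side by side; points are arrays and bars show the mean ± SD (n = 3). The groups are apart for Sox9, Sox10 and Sox13 and overlap for Sox8, Sox5 and Sox6.

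Sox9, which drives crest formation and cartilage differentiation, rose. It read 7.02, 6.97 and 7.20 on the control arrays and 7.72, 7.76 and 7.68 on the Nedd4 siRNA arrays. Every Nedd4 siRNA array lay above every control array, and the Nedd4 siRNA arrays were the tighter group (SD 0.040 against 0.12, n = 3 each). The log2 fold change was 0.66 (SE 0.091, 95% interval 0.46 to 0.86, adjusted p = 0.000337, limma), or 1.58-fold higher. Leaving out any 1 array gave 0.61 to 0.73, with an adjusted p of at most 0.00305.

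Sox10, which maintains multipotent crest cells and specifies glia and melanocytes, fell. The control arrays read 11.08, 11.19 and 10.93 and the Nedd4 siRNA arrays 10.65, 10.73 and 10.53. The groups did not overlap, with the lowest control array and the highest Nedd4 siRNA array 0.20 apart. The log2 fold change was −0.43 (SE 0.098, 95% interval −0.64 to −0.22, adjusted p = 0.00864, limma), or 1.35-fold lower. The fall missed the threshold in the methods' t-test, which fits each probeset alone with the same adjustment (adjusted p = 0.088). It passed without any 1 array, at −0.50 to −0.37 and an adjusted p of at most 0.0432.

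Sox8, which overlaps in function with Sox9 and Sox10, did not pass. It read 6.23, 5.59 and 5.86 with control siRNA and 5.86, 5.53 and 5.89 with Nedd4 siRNA, below the median signal of its array on all 6. The difference of −0.13 (SE 0.15, 95% interval −0.46 to 0.19, adjusted p = 0.694, limma) was smaller than the spread among the control arrays. Its sign turned when control replicate 1, the highest array, was left out (0.035, adjusted p = 0.934).

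Of the SoxD genes, Sox13 showed the clearest change of all 6. It read 8.28, 8.34 and 8.26 on the control arrays and 7.28, 7.49 and 7.23 on the Nedd4 siRNA arrays. The lowest control array was 0.77 above the highest Nedd4 siRNA array, a gap wider than the range within either group. Sox13 was 1.95-fold lower (log2 fold change −0.96, SE 0.094, 95% interval −1.16 to −0.76, adjusted p = 2.74e-05, limma). It ranked number 166 among all falls over the 19933 genes, where Sox10 ranked 1222, and Sox9 ranked 423 among the rises. The fall passed under every setting tried, and the methods' t-test gave it an adjusted p of 0.019.

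Sox5 and Sox6, the cartilage partners of Sox9, did not pass. Sox5 read 7.83, 7.91 and 8.08 with control siRNA and 7.79, 7.86 and 7.81 with Nedd4 siRNA, a difference of −0.12 (SE 0.092, 95% interval −0.32 to 0.081, adjusted p = 0.514, limma). Sox6 read 9.53, 9.72 and 9.98 against 9.85, 9.92 and 9.73, a difference of 0.09 (SE 0.11, 95% interval −0.16 to 0.34, adjusted p = 0.74, limma). The groups overlapped for both genes. These intervals leave out a change as large as that of Sox13, Sox9 or Sox10 for either gene, but not the smaller changes that lie within them. Without control replicate 1, its lowest array, the sign of Sox6 turned (−0.017, adjusted p = 0.966).

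Whether genes of a group moved by unequal amounts was asked within each array, where an offset common to all genes cancels. Array effects that differ with signal level do not cancel. Signals of different probesets are not on a common scale, so the difference between 2 genes has no meaning by itself and only its shift between groups is given. Sox9 minus Sox10 was −4.06, −4.22 and −3.73 on the control arrays and −2.93, −2.97 and −2.85 on the Nedd4 siRNA arrays, a shift of 1.09. Sox6 minus Sox13 shifted by 1.05 and Sox5 minus Sox13 by 0.84, from −0.45, −0.43 and −0.18 to 0.51, 0.37 and 0.58. The shift was −0.79 for Sox8 minus Sox9 and −0.21 for Sox5 minus Sox6. In these 5 pairs the groups did not overlap, with p = 0.1 each in the two-sided exact permutation test, the smallest that 3 arrays against 3 allow, and p = 0.12 after adjustment over the 6 pairs. The groups did not overlap for 31.7% of single genes either, and the share over all gene pairs was not computed. All of these pairs but Sox5 minus Sox6 hold a called gene, so they in part restate the calls above. Sox8 minus Sox10 shifted by 0.30 with overlapping groups (exact permutation p = 0.4, adjusted p = 0.4). No pair could reach 0.05 in this design, so the test shows unequal change for none of the 6.

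**Figure D2:**
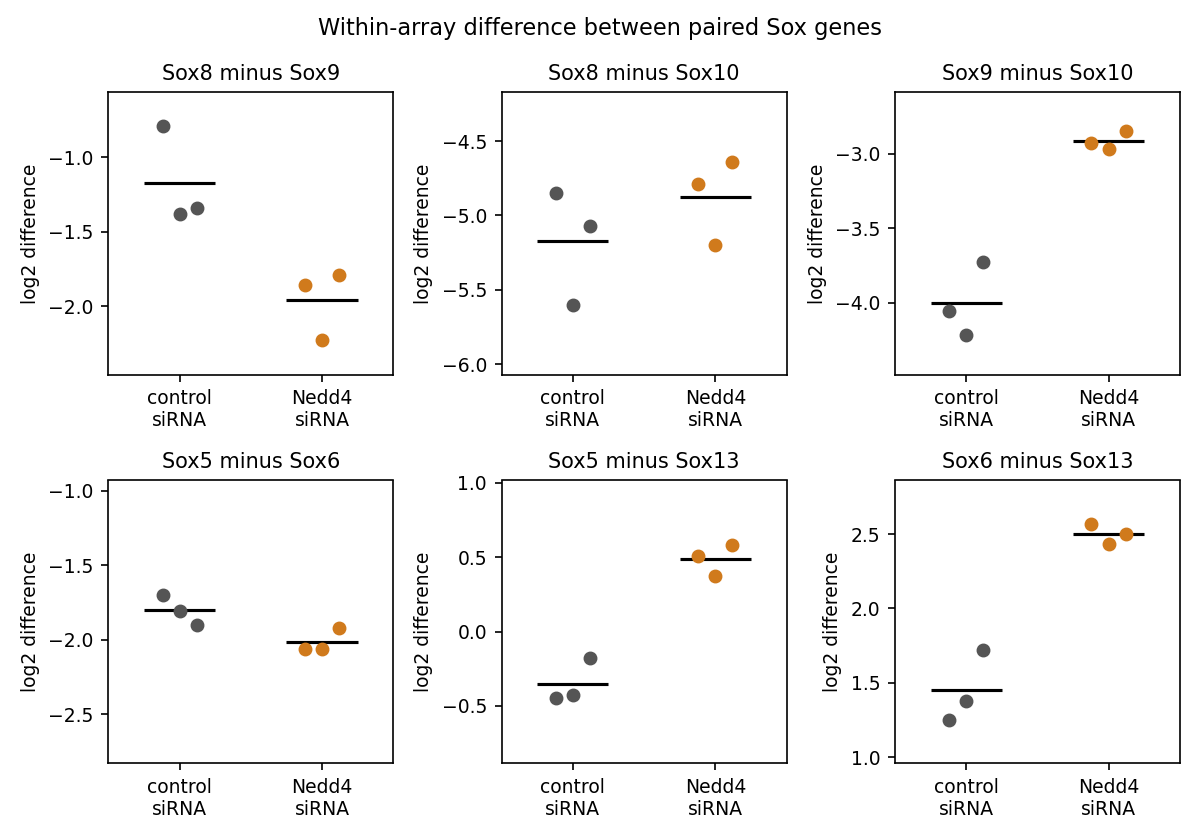
Within-array difference of log2 expression for the 6 gene pairs within the SoxE and SoxD groups; points are arrays and horizontal lines group means (n = 3). The Nedd4 siRNA points are apart from the control points in all pairs but Sox8 minus Sox10.

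The remaining 13 measured Sox genes held 1 that was higher and 1 that was lower. Sox2, a SoxB1 gene of neural progenitors, rose from 9.93, 10.09 and 9.87 to 10.34, 10.38 and 10.35 (log2 fold change 0.39, SE 0.090, adjusted p = 0.00881, limma). Sox12, a SoxC gene, fell from 8.35, 8.58 and 8.82 to 7.77, 7.88 and 7.68 (−0.81, SE 0.12, adjusted p = 0.000449). The groups did not overlap for either gene. In the methods' t-test neither passed, at an adjusted p of 0.0525 for Sox2 and 0.06 for Sox12. Sox1 had 0.26 (adjusted p = 0.0918), Sox4 0.25 (adjusted p = 0.202) and Sox11 −0.24 (adjusted p = 0.184), and without control replicate 2 Sox1 passed (0.33, adjusted p = 0.0409). The other 8 were Sox3, Sox7, Sox14, Sox15, Sox17, Sox18, Sox21 and Sox30, of which 7 lay below the median signal, as did Sox11. With 2 of 13, or 15.4%, the rest of the family was near the 18.7% of all genes.

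**Figure D3:**
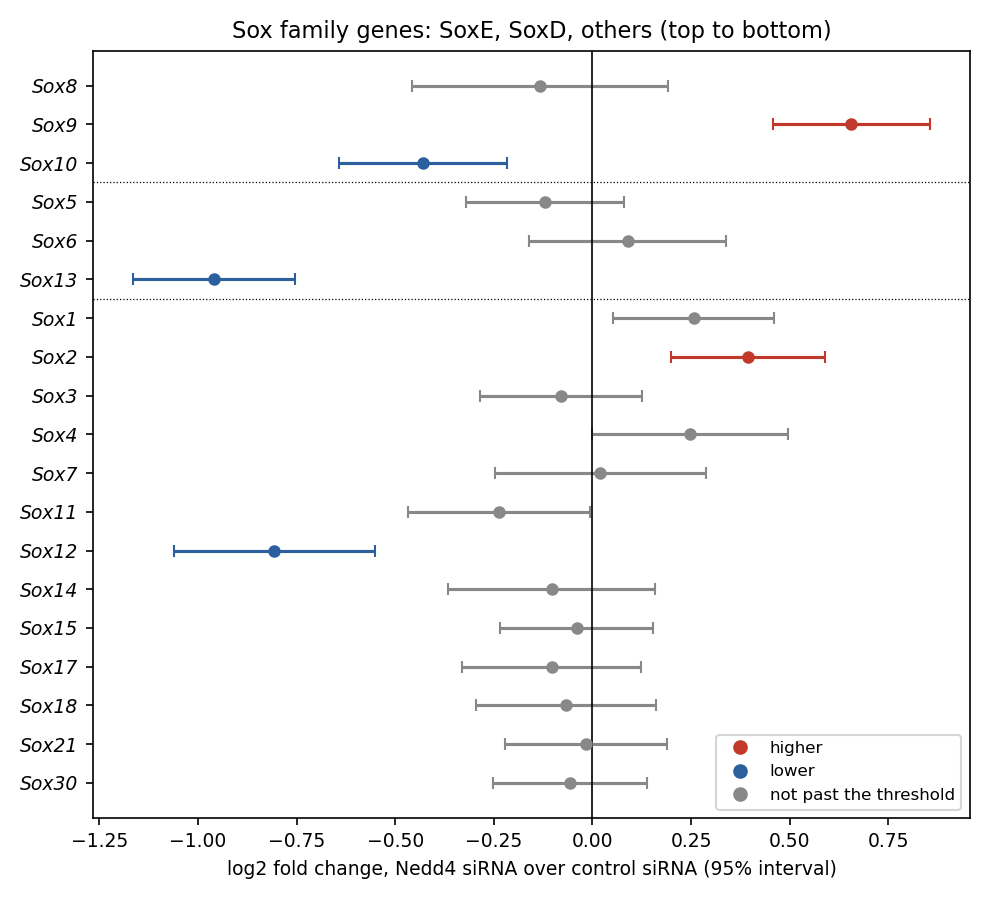
Log2 fold change, Nedd4 siRNA over control siRNA, of the 19 measured Sox genes, with SoxE, SoxD and the others from top to bottom; points are estimates from limma over 3 arrays a group, bars show the 95% interval, and colour marks genes past the threshold. Of the genes past the threshold, Sox9 and Sox2 lie to the right of 0 and Sox13, Sox12 and Sox10 to the left.

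Known SoxE target genes of crest, glia and melanocytes changed in both directions. Of 29 measured genes, 2 were higher and 7 lower, or 31.0% called against 18.7% of all genes, and the median log2 fold change was −0.087 against −0.017 over all genes. Below the median signal lay 12 of the 29. Pmp2, which encodes a lipid-binding myelin protein, read 8.70, 8.65 and 8.59 on the control arrays and 5.31, 5.45 and 5.47 on the Nedd4 siRNA arrays, 9.43-fold lower (−3.24, SE 0.088, adjusted p = 2.10e-09). Cnp, an enzyme of myelinating glia, fell from 9.23, 9.66 and 9.38 to 7.86, 7.96 and 7.71 (−1.58, SE 0.12, adjusted p = 3.62e-06). Erbb3, the neuregulin receptor of crest and glial precursors, fell from 10.85, 10.89 and 10.61 to 9.48, 9.84 and 9.62 (−1.14, SE 0.11, adjusted p = 2.93e-05). All 3 of these genes had a gap of over 0.7 between the groups. Gjc3, a glial connexin, had −0.74 (adjusted p = 0.000597), and Foxd3, a transcription factor of early crest, −0.54 (adjusted p = 0.00136).

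The rises that passed among these targets were those of Fabp7 and Egr2. Mitf (0.28) and Ret (0.27) were higher without passing (adjusted p = 0.0572 and 0.073, limma). Both passed with array weights, quantile normalization and median centring. Fabp7, a fatty acid-binding protein of glial precursors, rose from 10.89, 10.89 and 10.63 to 12.02, 11.95 and 12.04 (1.20, SE 0.096, adjusted p = 6.85e-06, limma). Egr2, the factor that starts myelination in Schwann cells, rose from 6.21, 6.17 and 6.31 to 7.27, 7.30 and 6.82 (0.90, SE 0.12, adjusted p = 0.000288). In the methods' t-test 6 of the 29 targets passed, and Egr2, Gjc3 and Nes missed the threshold, at an adjusted p of 0.057, 0.0584 and 0.222. Nes, an intermediate filament of progenitors, passed narrowly (−0.37, adjusted p = 0.0394) and did not pass without control replicate 1 or 2 (adjusted p = 0.0899 and 0.134) or Nedd4 siRNA replicate 1 or 3 (0.152 and 0.143). Mbp, a myelin protein, had −0.27 (adjusted p = 0.0423) and did not pass without any 1 of the 6 arrays (adjusted p between 0.059 and 0.202).

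Cartilage targets of Sox9, Sox5 and Sox6 held 2 higher and 6 lower genes of 22 measured, or 36.4% called against 18.7% of all genes, with a median of −0.062 against −0.017. Below the median signal lay 10 of the 22. The lower ones were mostly matrix genes, and the cartilage fibril collagens of types II, IX and XI had 3 lower and none higher of 6, beside 9.13% of all genes lower. Col9a1 fell from 8.77, 8.84 and 8.76 to 7.77, 8.17 and 8.06 (−0.79, SE 0.11, adjusted p = 0.000275, limma). Col11a1 fell from 9.37, 9.52 and 9.64 to 8.63, 8.89 and 8.70 (−0.77, SE 0.10, adjusted p = 0.000247). Col9a3 had −0.63 (adjusted p = 0.00105), while Col2a1, the classical Sox9 target, had −0.22 with overlapping groups (adjusted p = 0.206). Wwp2, a ubiquitin ligase of the NEDD4 family whose gene is activated by Sox9 in cartilage, fell from 11.54, 11.62 and 11.51 to 10.83, 11.04 and 10.94 (−0.62, SE 0.090, adjusted p = 0.000459).

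Acan, the cartilage proteoglycan core protein, and Hapln1, its link protein, had small falls of −0.33 and −0.34 (adjusted p = 0.0402 and 0.0201, limma). Acan passed when Nedd4 siRNA replicate 2 was left out and did not without any other single array (adjusted p between 0.0507 and 0.182). Hapln1 did not pass without control replicate 1 (adjusted p = 0.0586) or Nedd4 siRNA replicate 1 (0.138). The 2 higher genes were Col10a1, the collagen of hypertrophic cartilage, at 0.63 (SE 0.085, adjusted p = 0.000257), and Fmod, a collagen-binding proteoglycan, at 0.44 (SE 0.085, adjusted p = 0.00308). Of the 8 called genes, Col10a1, Fmod, Col9a1, Col11a1 and Wwp2 also passed the methods' t-test. The 2 target lists together held 4 higher and 13 lower of 50 measured genes, with Mia in both lists. Whether Sox9, Sox10 or Sox13 had a part in these changes was not tested.

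The promoters of the called targets were read for the HMG-box core, since the members share that DNA-binding domain. The letters searched were ACAAAG or ACAATG and also TCAAAG or TCAATG on both strands, in the 250 bases before the start in RefSeq promoter windows of build GRCm38.p6. The motifs do not overlap each other in the matches below. Of the 17 called targets, 7 had a window that could be used, and 2 of these held a motif, against 39.4% of all 32851 windows. They were Gjc3, which fell, and Col10a1, which rose, and they are shown because they are the only such windows. Motif letters are in capitals. The windows are chr5:137963099-137963348 (minus strand) for Gjc3 and chr10:34389731-34389980 (plus strand) for Col10a1.
Gjc3: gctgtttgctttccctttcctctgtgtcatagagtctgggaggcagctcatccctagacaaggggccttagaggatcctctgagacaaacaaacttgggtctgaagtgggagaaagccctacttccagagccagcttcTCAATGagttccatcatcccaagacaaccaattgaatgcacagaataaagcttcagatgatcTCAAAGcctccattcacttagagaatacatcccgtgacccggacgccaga
Col10a1: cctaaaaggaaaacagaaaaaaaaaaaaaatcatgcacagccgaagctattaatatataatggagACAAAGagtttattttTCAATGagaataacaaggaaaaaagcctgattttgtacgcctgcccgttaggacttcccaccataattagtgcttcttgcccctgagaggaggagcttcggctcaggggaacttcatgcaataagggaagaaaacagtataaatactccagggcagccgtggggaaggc
Each window holds 2 matches on the strand of the gene. A match is a run of letters, and these arrays do not measure binding.

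**Figure D4:**
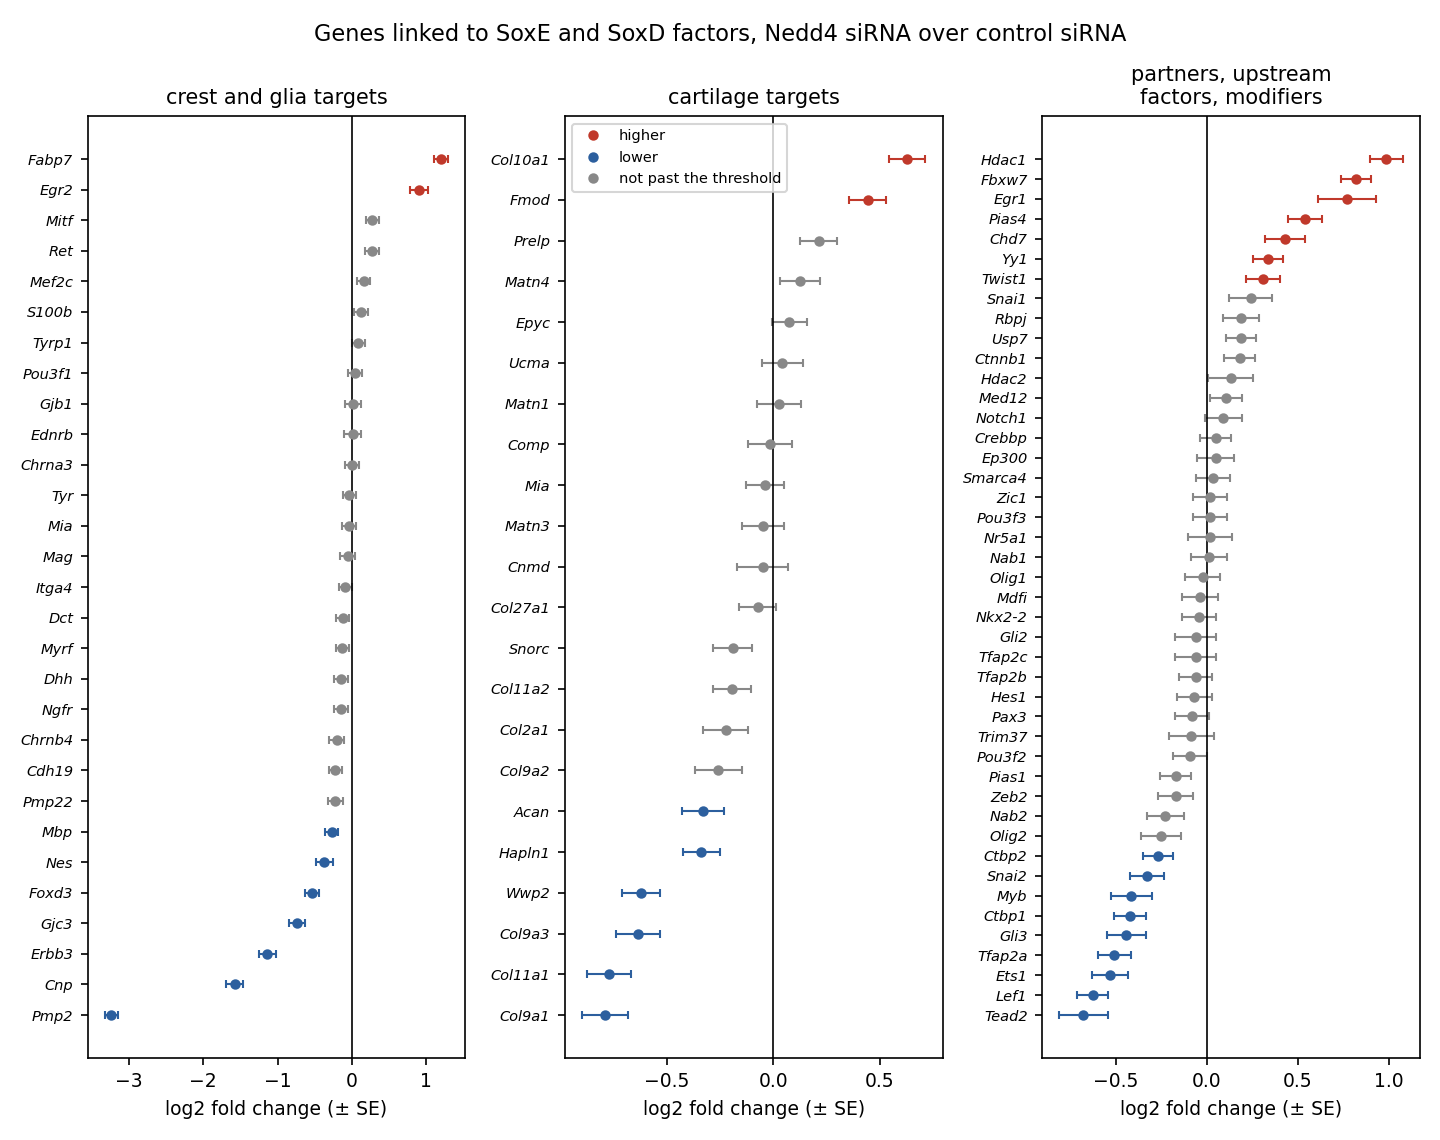
Log2 fold change, Nedd4 siRNA over control siRNA, of the measured SoxE targets of crest and glia, the cartilage targets, and the partners, upstream factors and modifiers; points are estimates from limma over 3 arrays a group, bars show the SE, and colours mark genes past the threshold. Changes run from −3.24 for Pmp2 to 1.20 for Fabp7, and each panel holds called genes on both sides of 0.

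Partners, upstream factors and modifiers of SoxE and SoxD proteins also changed in both directions, with 7 higher and 9 lower of 44 measured, or 36.4% called against 18.7% of all genes, and a median of −0.032 against −0.017. Only 11 of the 44 lay below the median signal, and a share over genes of like signal was not computed. Hdac1, a histone deacetylase that works with Sox10 in glia, rose from 9.64, 9.58 and 9.53 to 10.65, 10.46 and 10.60 (0.99, SE 0.089, adjusted p = 1.50e-05, limma). Fbxw7, the substrate receptor of a ubiquitin ligase for Sox9 and Sox10, rose from 7.31, 7.37 and 7.31 to 8.16, 8.17 and 8.12 (0.82, SE 0.082, adjusted p = 3.28e-05), and the mean of its 2 probesets gave 0.57. Pias4, a SUMO ligase, rose by 0.54 (adjusted p = 0.00136). Egr1, an early response factor, had 0.77 (adjusted p = 0.0048), with Nedd4 siRNA arrays that ranged from 7.37 to 8.16. The groups did not overlap for any of these 4 genes.

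Among the lower ones were transcription factors of the early crest and of Wnt and Hippo signalling. Lef1, a TCF family factor of the Wnt pathway, fell from 8.87, 8.95 and 8.93 to 8.27, 8.38 and 8.21 (−0.63, SE 0.087, adjusted p = 0.000321, limma). Tfap2a, which acts upstream of Sox9 and Sox10 in the crest, fell from 9.41, 9.53 and 9.53 to 9.05, 9.01 and 8.88 (−0.51, SE 0.089, adjusted p = 0.00164). Ets1, a further upstream factor of Sox10, had −0.53 (adjusted p = 0.00245), and Tead2, a DNA-binding partner of YAP, −0.68 (adjusted p = 0.00342). In the methods' t-test Egr1, Ets1 and Tead2 missed the threshold, at an adjusted p of 0.17, 0.0614 and 0.132. The count of 16 fell to 9 by that test, to 10 without control replicate 3, to 9 without Nedd4 siRNA replicate 1 and to 10 without Nedd4 siRNA replicate 3.

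The neural crest label was set beside 13 marker genes, Sox10 among them. Of these 1 was higher and 6 were lower: Erbb3, Foxd3, Tfap2a, Ets1, Sox10 and Snai2 fell and Twist1 rose. These are 46.2% lower and 7.69% higher, where 9.13% and 9.62% of all genes were. Every marker that passed was already counted above, as a member, a target, a partner or an upstream factor. The list is therefore not a separate check. Tfap2b, Ednrb and Msx1 lay below the median signal in these cells. The summed log2 level of the list was 110.88 to 111.28 on the control arrays and 107.59 to 108.28 on the Nedd4 siRNA arrays. Snai2 (−0.33, adjusted p = 0.0293, limma) did not pass without control replicate 3 (adjusted p = 0.105) or Nedd4 siRNA replicate 1, 2 or 3 (0.148, 0.053 and 0.0665). Twist1 (0.31, adjusted p = 0.0419) did not pass without control replicate 1 or 3 (0.0801 and 0.143) or Nedd4 siRNA replicate 1, 2 or 3 (0.131, 0.0621 and 0.148). In bulk RNA, fewer cells of a type and less RNA per cell cannot be told apart.

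Markers of cell types that the crest can give rise to moved in part. The 9 measured Schwann cell markers had Pmp2 and Mbp lower and Egr2 higher, or 33.3% called against 18.7% of all genes. These called genes were also counted among the targets above. The summed level was 69.73 to 70.08 against 66.78 to 66.84. Pmp2 carried this net drop. Without it, a choice made after its value was seen, the other 8 summed to 61.08 to 61.38 with control siRNA and 61.36 to 61.47 with Nedd4 siRNA. That sum mixes directions: Egr2 had 0.90, while Mbp (−0.27), Cdh19 (−0.22), Gfap (−0.16), Dhh (−0.15) and Ncmap (−0.13) had negative values. S100b had 0.13 and Mal 0.097, and of these 8 genes only Egr2 and Mbp passed. Of 10 smooth muscle and fibroblast markers 4 rose and none fell, or 40.0% higher against 9.62% of all genes, with a sum of 66.44 to 67.40 against 69.22 to 70.25. They were Pdgfra (0.81, adjusted p = 4.98e-05, limma) and Pdgfrb (0.54, adjusted p = 0.00129), receptors for PDGF, Dcn (0.58, adjusted p = 0.000439), a matrix proteoglycan, and Des (0.36, adjusted p = 0.0217), a muscle intermediate filament. Des did not pass without control replicate 3 (adjusted p = 0.0727) or Nedd4 siRNA replicate 1 or 3 (0.14 and 0.0765), and the smooth muscle genes Myh11, Cnn1 and Tagln and the fibroblast genes Lum and Thy1 lay below the median signal. Of 8 chondrocyte markers Acan, a cartilage target above, alone passed, or 12.5% called against 18.7% of all genes. Below the median signal were 6 of them (sum 52.24 to 52.71 against 51.38 to 52.22). Of 8 melanocyte markers limma passed 0, with only Mitf at an unadjusted p under 0.05 (1 also by the methods' t-test). All but Mitf were dim (45.37 to 46.19 against 45.57 to 46.17). Mitf, also a SoxE target above, had 0.28 with groups that did not overlap (adjusted p = 0.0572, limma). It passed with array weights, quantile normalization, median centring, either dim filter and only probesets of 1 symbol. Of 8 neuron markers, all dim, limma passed 0, with 0 at an unadjusted p under 0.05 by either test (42.79 to 44.10 against 42.62 to 43.45). The part of these shifts in the changes of Sox9, Sox10 and Sox13 was not tested.

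For the 3 called members, the genes with the most similar profile over the 6 arrays were found by the root mean square difference after each gene was centred on its mean. For Sox9 these were Ncam1 (0.040), Nol8 (0.043) and Setbp1 (0.045), with Pearson's r of 0.995, 0.992 and 0.995 over 6 arrays. Ncam1, a neural cell adhesion molecule, had a log2 fold change of 0.69. For Sox10 they were Ankrd13b (0.019), Stx2 (0.021) and Cacna1a (0.021), with r of 0.997, 0.997 and 0.997. Ankrd13b did not pass without control replicate 2 (adjusted p = 0.052, limma) or Nedd4 siRNA replicate 3 (0.0654), and Cacna1a without Nedd4 siRNA replicate 3 (0.0598). For Sox13 they were Ube3b (0.038), Dock8 (0.041) and Sqle (0.049), with r of 0.997, 0.996 and 0.998. Ube3b is a HECT-type ubiquitin ligase, as Nedd4 is, and had −0.97 (adjusted p = 2.55e-05). The points share the same 6 arrays and the genes were picked for likeness from all those measured, so r is a description.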

How the data were processed

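The authors deposited log2 expression values of 28440 probesets, made from Affymetrix Mouse Gene arrays with RMA in Partek (version 6.5 in the submitters' processing notes), and, in the methods, corrected for GC content and summarized as the mean of the probes. Only these values were used, and no further normalization was applied. The platform annotation gave 1 symbol for 21780 probesets, several for 1618 and none for 5042; 21689 matched a RefSeq gene ID. The highest-mean probeset of 1 symbol stood for a gene. The 3 Nedd4 siRNA and 3 control siRNA arrays were compared with limma 3.58.1 (R 4.3.3; lmFit and eBayes, no covariate), adjusted by Benjamini-Hochberg over all probesets at 0.05. The test was tested on simulated data. The median residual SD was 0.117, and precision is limited by the number of arrays. Permutation tests were exact and two-sided, with SciPy 1.17.1 in Python 3.11.15, NumPy 2.4.6, pandas 2.3.3 and Matplotlib 3.10.9. Members and lists were chosen with earlier results of these data known. Named are all Sox genes, Nedd4, up to 8 called genes per list by smallest p, and the 3 nearest profiles per called member. Col2a1, Mitf and other list members that did not pass, and dim markers, were named outside this rule. Some genes of the lists are not reported here. The methods name an ANOVA, run here with siRNA as its factor and called the methods' t-test. Other settings were trend and robust eBayes, the replicate block, median centring, quantile normalization, array weights, dim filters (25% or 50%), a stricter threshold of 0.01, the mean over a gene's probesets, probesets of 1 symbol and leaving out each array.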

Additional observations from a re-analysis of the deposited data

How the results depend on the processing

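Sox9 and Sox13 kept their direction and call under every setting, and Sox10 under all but the methods' t-test, where −0.43 did not pass and 2 of the 6 SoxE and SoxD genes remained called. With 1 array left out, Sox6 ranged from −0.017 to 0.21 and Sox8 from −0.29 to 0.035, and neither passed. By the methods' t-test 0 of the other Sox genes passed (3 at an unadjusted p under 0.05, against 4 by limma), 5 of the cartilage targets and 9 of the partners, upstream factors and modifiers. Array weights passed 4 other Sox genes, adding Sox1 and Sox11. Of the crest and glia targets 6 passed by the methods' t-test, 11 with array weights and 12 with quantile normalization. At an adjusted p under 0.01, 9 partners, upstream factors and modifiers passed, and leaving out 1 array gave 9 to 15. Signs turned for uncalled Sox genes: leaving out 1 array gave −0.17 to 0.027 for Sox14, −0.16 to 0.0083 for Sox18, −0.097 to 0.12 for Sox7 and −0.088 to 0.027 for Sox21, and Sox21 had 0.057 with array weights, 0.018 with quantile normalization and 0.0067 with median centring. Of 43 called genes named beside the 6 members, all 43 kept their direction, 26 passed by the methods' t-test and 25 kept the call under every setting but the stricter threshold. Same-numbered arrays had deviations correlated at −0.012, 0.47 and −0.013, and not every array correlated best with its own number. With 3 arrays a group, these correlations cannot settle whether same-numbered arrays were prepared together. The replicate block called 3 of the 6 members and 4962 probesets against 4579 without it, and Twist1 did not pass (adjusted p = 0.0535). The 4579 fell to 2134 by the methods' t-test, 2962 without Nedd4 siRNA replicate 1 and 2881 at an adjusted p under 0.01. Sox8 was left out by the 50% dim filter. The causes of these differences were not tested. With 3 arrays against 3, a change of the size of the standard errors given is not detectable. In simulated arrays with 100 probesets changed by each amount, a log2 change of 0.5 was recovered for 39 and a change of 1.0 for 93. Far fewer probesets were changed there than the 4579 called in the data. The adjustment was therefore stricter in the simulation, and its recoveries may be too low for the data. Genes that did not pass may still have changed, by amounts within their intervals. For Sox5, Sox6 and Sox8 the intervals given above leave out a log2 change of 0.5 or 1.0 in either direction. Sox8 and 8 other Sox genes lay in the dimmer part of the array, where signal over background limits any change.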
